A study of Homo sapiens with 8 samples.

Results

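The kynurenine pathway is the main route by which human cells break down tryptophan, and it is represented here by 10 of 18132 genes, with 16 probe sets of the 49293 that were tested. The members are every probe set whose annotation names only IDO1, IDO2, TDO2, AFMID, KMO, AADAT, KYNU, HAAO, ACMSD or QPRT. The genes were put together because KYNU was already known to have the smallest p of the metabolic genes between the conditions. Its values are therefore a description and are not read as a test. All samples are DU145, an established prostate cancer cell line, grown in RPMI with serum and antibiotics. The 4 Aldrin-exposed samples were kept for 50 days with 1 µM Aldrin, an organochlorine insecticide, renewed after every passage, and the 4 Non-exposed samples are labelled as not treated. The labels give 1 protocol text for all samples, which names DMSO as the solvent, and say nothing of a solvent for the Non-exposed cells. Total RNA was hybridised to 8 arrays, 1 per sample, and each value is a log2 intensity per probe set. Whether replicates were grown apart is stated neither in the labels nor in the paper. The p-values therefore cover the spread among these 8 samples, which may be technical.

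The pathway opens tryptophan with IDO1, IDO2 or TDO2, and AFMID removes the formyl group to give kynurenine. Kynurenine then meets a fork. KMO hydroxylates it, AADAT turns it into kynurenic acid, and KYNU cleaves it or its hydroxylated form, which leads through HAAO and QPRT towards NAD+, while ACMSD draws intermediates off towards picolinic acid and glutarate. In tumours the pathway is best known for IDO1 and TDO2, which deplete tryptophan and supply kynurenines that bind the aryl hydrocarbon receptor.

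KYNU transcripts read lower after Aldrin exposure, without overlap between conditions in all but its dimmest probe set. For the other 9 genes the arrays of the conditions overlapped. The KYNU probe set of highest mean read 1.56-fold lower in exposed cells, at 9.10 ± 0.05 against 9.74 ± 0.14 (SD, n = 4). The enzymes that open the pathway, IDO1, IDO2 and TDO2, had log2 differences (Aldrin-exposed minus Non-exposed, as throughout) from -0.10 to 0.17. Over the 13 probe sets other than KYNU they ran from -0.18 for AFMID to 0.26 for QPRT, and all groups overlapped. By the probe set of highest mean, IDO1 (4.47 in exposed and 4.57 in Non-exposed cells), KMO (4.53 and 4.48) and TDO2 (5.04 and 4.87) were dim. The hepatocyte marker ALB read 4.43 and 4.45 and the leukocyte marker PTPRC 4.76 and 4.75. Whether such dim transcripts were present was not tested, so their overlap does not show them unchanged. AFMID (9.38 and 9.28), HAAO (7.26 and 7.38) and QPRT (7.19 and 6.93) read higher.

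In limma, p-values were adjusted by Benjamini-Hochberg over all 49293 probe sets, with a threshold of 0.05. Of the 13 probe sets other than KYNU 0 passed, beside 1 probe set or 0.00203% of all. That 1 probe set was not of KYNU or of any other member. At an unadjusted p under 0.05 the count was 0 of 13, against 3.07% of all probe sets. An unequal-variance test passed 0 of the 13 after adjustment and 0 unadjusted, against 2.77% of all. In 2 of the 16 members, both of KYNU, every exposed array was below every Non-exposed array, which held for 1.35% of all probe sets. None was higher without overlap, against 0.643% of all, and in either direction 1.99% of all had no overlap. The mean was lower in exposed cells for 7 of the 16 (51.8% of all), and the median log2 difference was 0.03 for the members and -0.00485 over all probe sets. Since KYNU gave the genes their place here, these counts are set beside the background and nothing is read from them. The median SD within a condition was 0.135 for the members and 0.164 over all probe sets.

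**Figure D1:**
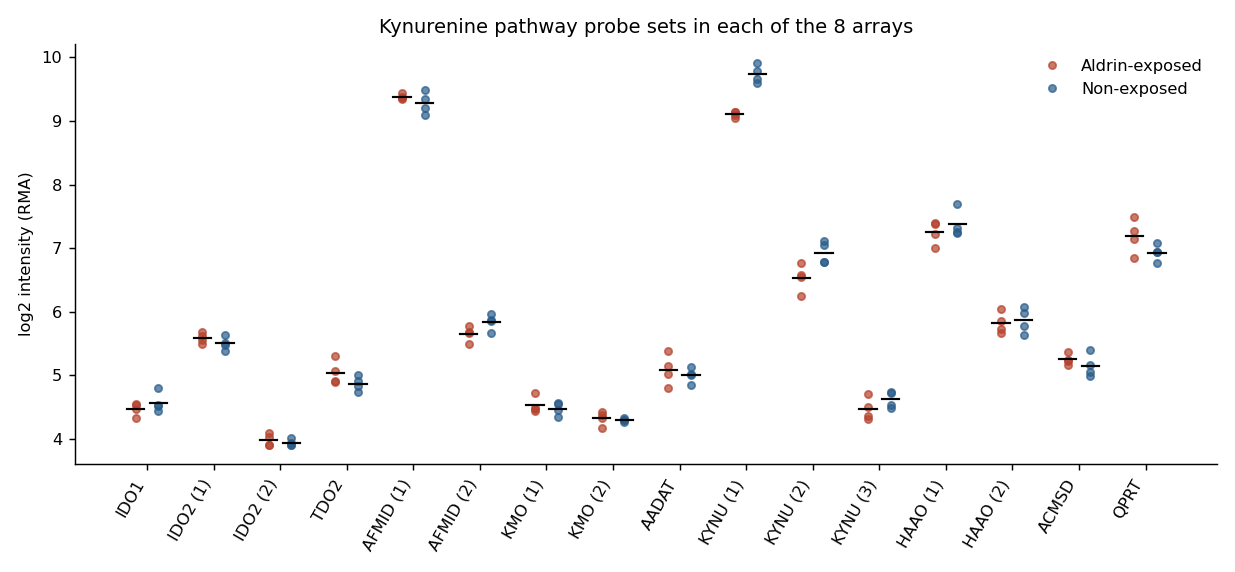
Log2 intensity (RMA) of the 16 probe sets of the kynurenine pathway, 1 point per array and a bar at each mean, with Aldrin-exposed arrays on the left and Non-exposed arrays on the right of each pair. Probe sets of 1 gene are numbered by falling mean, and only KYNU (1) and KYNU (2) have no overlap between the conditions.

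**Figure D2:**
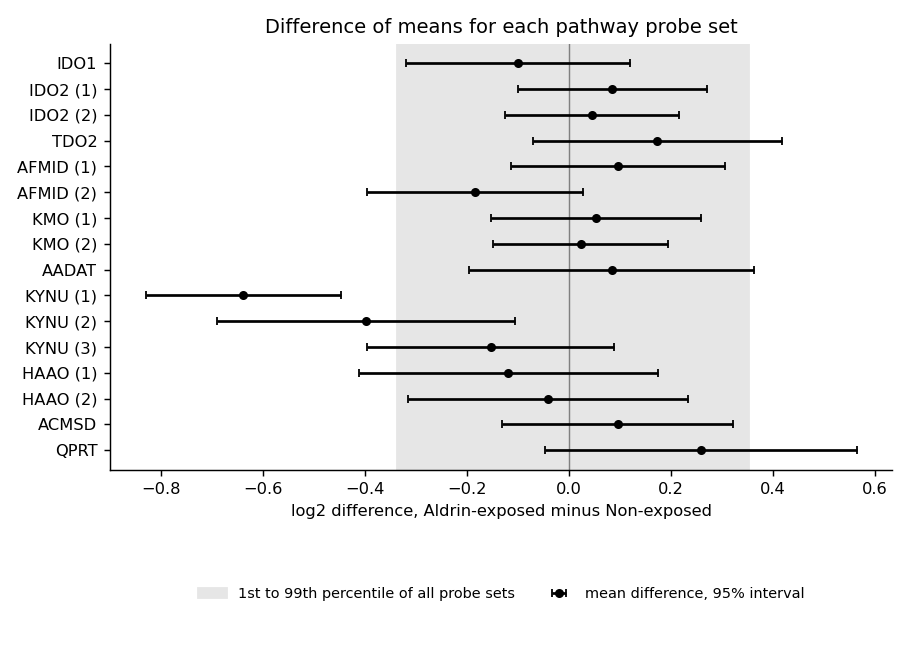
Difference of means (Aldrin-exposed minus Non-exposed, log2) of each member with its 95% interval from limma (for KYNU a description of the spread only), over a grey band from the 1st to the 99th percentile of all probe sets, -0.34 to 0.35. KYNU (1) at -0.64 and KYNU (2) at -0.40 lie outside the band and the other 14 inside it.

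The 8 arrays were alike, with correlations from 0.983 to 0.997 between them. The first principal component took 53.3% of the variance and held both conditions at both ends. Aldrin-exposed replicate 3 (loading 0.62) and Non-exposed replicate 4 (0.44) lay at one end, and Non-exposed replicates 1 and 3 (-0.40 and -0.42) and Aldrin-exposed replicate 2 (-0.25) towards the other. Epithelial markers were present, with mean levels of 12.92 and 13.02 for KRT19 and 13.84 and 13.89 for KRT7 in exposed and Non-exposed cells. The basal keratin KRT5 read 5.84 and 5.88. Markers of the differentiated prostate (KLK3, KLK2, TMPRSS2) had mean levels of 5.57 to 6.32. The leukocyte marker PTPRC read 4.76 and 4.75 and the hepatocyte marker ALB 4.43 and 4.45. Probes differ in their response, so the levels of different probe sets do not give the relative amounts of their transcripts.

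KYNU encodes kynureninase, a vitamin B6-dependent enzyme that splits alanine from kynurenine or 3-hydroxykynurenine. It has 3 probe sets, called KYNU (1) (11719120_a_at), KYNU (2) (11733646_x_at) and KYNU (3) (11733645_a_at). By the annotation KYNU (1) was designed on the record of the full-length enzyme, and KYNU (2) and KYNU (3) on a record of a shorter isoform. The suffix x marks a probe set in which some probes can also match other sequences.

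KYNU (1) read 9.04, 9.14, 9.15 and 9.09 in exposed replicates 1 to 4 and 9.60, 9.79, 9.67 and 9.91 in Non-exposed replicates 1 to 4. The lowest Non-exposed array was 0.459 above the highest exposed array, and the 4 exposed arrays lay within a narrower range than the 4 Non-exposed ones. The log2 difference was -0.64 (standard error 0.09). KYNU (2) read 6.54, 6.77, 6.24 and 6.59 in exposed and 7.12, 7.05, 6.78 and 6.78 in Non-exposed replicates. Here the conditions were parted by only 0.00954, between exposed replicate 2 and Non-exposed replicate 3, and the difference was -0.40 (standard error 0.13). KYNU (3) read 4.37, 4.70, 4.50 and 4.31 in exposed and 4.72, 4.74, 4.49 and 4.54 in Non-exposed replicates. Its conditions overlapped, with a difference of -0.15 (standard error 0.11). The 3 probe sets thus had the lower mean in exposed cells by unequal amounts, and the difference between them was not tested. The dimmer the probe set, the smaller its difference was, and KYNU (3) lay among the dimmest 20% of probe sets. Whether the isoforms changed unequally was therefore not tested. In bulk RNA a lower level in each cell and fewer cells that express the gene cannot be told apart.

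The 3 KYNU probe sets followed each other only in part. Over the 8 arrays, which hold both conditions, the correlation was 0.67 (Spearman 0.69) between KYNU (1) and KYNU (2), 0.50 (0.60) between KYNU (1) and KYNU (3), and 0.69 (0.71) between KYNU (2) and KYNU (3). Taken as deviations from the mean of each condition, the first pair had -0.32, the next 0.07 and the last 0.56. All 3 pairs thus had lower correlations within conditions than over both.

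Leaving out any of the 8 arrays kept the log2 difference of KYNU (1) between -0.68 and -0.58. Exposed replicates 2 and 3, near opposite ends of the first component at loadings of -0.25 and 0.62, read 9.14 and 9.15. Non-exposed replicates 1 and 4, at -0.40 and 0.44, read 9.60 and 9.91, and both were above all exposed arrays. Non-exposed replicates 3 and 2, at -0.42 and 0.12, read 9.67 and 9.79, so the Non-exposed values were higher towards the upper end. By rising loading the exposed arrays read 9.14, 9.04, 9.09 and 9.15. How far KYNU (1) follows the component within a condition was not tested. The 3′ minus 5′ difference of the GAPDH control probe sets, a sign of RNA integrity, was 0.408 to 0.651 in exposed and 0.388 to 0.589 in Non-exposed arrays. All 7 epithelial markers had the lower mean in exposed cells, against 54.2% of all genes by their highest probe set. The differences ran from -0.46 for the cadherin CDH1 to -0.04 for KRT5, and each marker alone overlapped between conditions. Their summed log2 level was 77.1 to 77.9 in exposed and 78.3 to 79.1 in Non-exposed arrays, without overlap. How often such a sum has no overlap over all genes was not computed. In limma 0 of the 7 passed (1 at an unadjusted p under 0.05). Like KYNU, the sum was lower in exposed cells, and its part in the KYNU difference was not tested. Markers of monocytes and macrophages, which are known for high KYNU, had summed levels of 40.2 to 41.3 and 40.4 to 41.3 over 7 genes, of which 2 had the lower mean in exposed cells and 0 passed (1 at an unadjusted p under 0.05, AIF1, with a difference of -0.24).

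**Figure D3:**
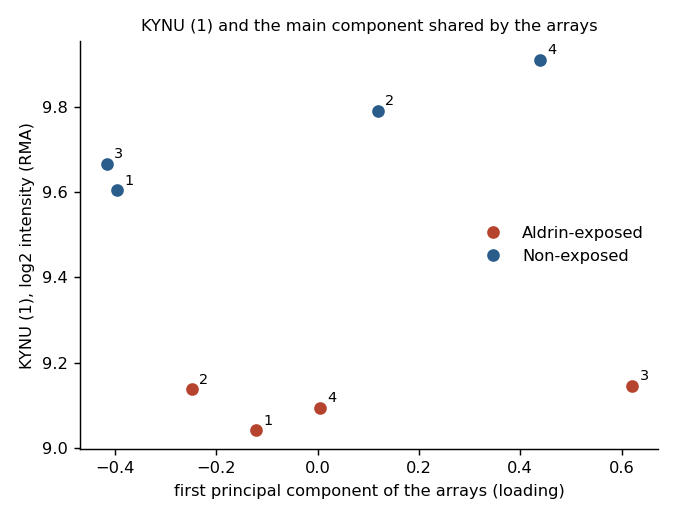
Log2 intensity of KYNU (1) in each array, labelled by its replicate number, against the loading of the array on the first principal component. The exposed arrays lie between 9.04 and 9.15 and the Non-exposed arrays between 9.60 and 9.91 along the whole component. Within the Non-exposed arrays, those at loadings of 0.12 and 0.44 lie above those at -0.40 and -0.42.

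**Figure D4:**
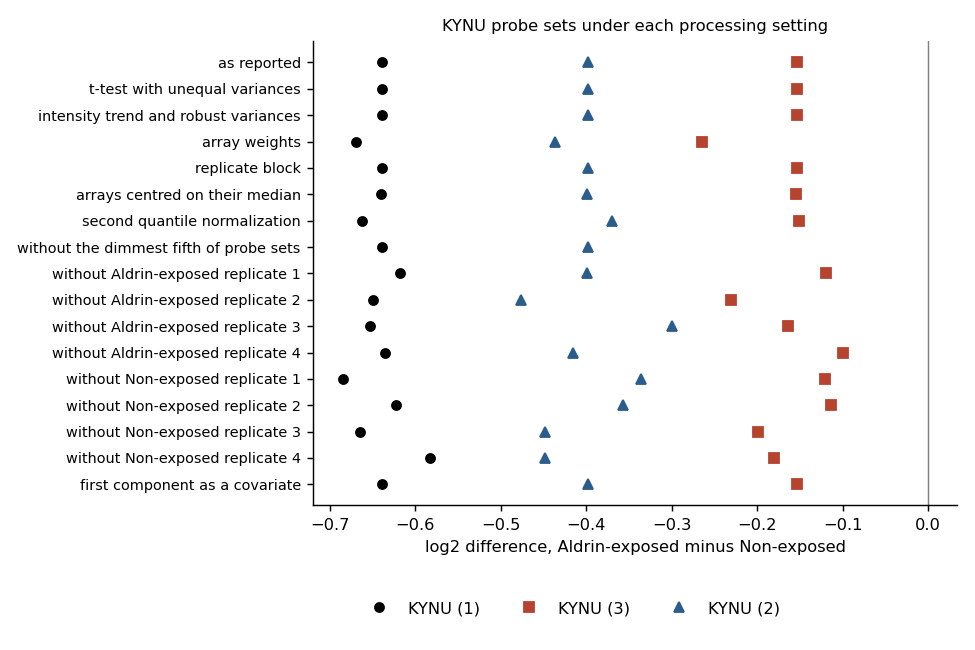
Log2 difference (Aldrin-exposed minus Non-exposed) of the 3 KYNU probe sets as reported and under each other setting, including each array left out. KYNU (1) stays between -0.68 and -0.58, KYNU (2) between -0.48 and -0.30 and KYNU (3) between -0.26 and -0.10, and KYNU (3) has no value where the dimmest 20% of probe sets are left out.

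The sequence before the start of KYNU is shown because this gene gave the others their place here. It holds the 250 bases before the start that RefSeq gives (GRCh38.p14, plus strand, chr2:142877414-142877663), with matches to 6 motifs, searched on both strands, in capitals.
KYNU: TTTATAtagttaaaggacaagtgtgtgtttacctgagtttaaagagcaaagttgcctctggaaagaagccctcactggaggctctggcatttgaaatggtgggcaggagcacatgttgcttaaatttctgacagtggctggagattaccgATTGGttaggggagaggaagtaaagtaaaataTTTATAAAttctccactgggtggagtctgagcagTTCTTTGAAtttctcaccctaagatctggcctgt

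The TATA box motif TATAAA matched on both strands in the overlapping run 68 to 61 bases before the start, and once more 250 to 245 bases before it. The CCAAT box motif CCAAT matched on the opposite strand 100 to 96 bases before the start. A match to TTCNNNGAA, the form of the GAS element of interferon gamma-responsive genes, lay 34 to 26 bases before it. This motif was found in 6.57% of 35116 such windows and, among the 7 member genes with a window, in KYNU alone. TATAAA was in 10.7% of windows and in those of AFMID, KMO, KYNU and TDO2, and CCAAT was in 32% and in 5 of the 7 genes. The AHR core GCGTG (32.2%) was in AFMID, the AP-1 motif TGANTCA (6.57%) in TDO2, and the interferon-stimulated response element (3.02%) in none of them. A match is only a match of letters, and no window was examined for IDO1, IDO2 or ACMSD.

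IDO1 and IDO2, the indoleamine dioxygenases, and TDO2, the dioxygenase best known from liver, start the pathway. IDO1 read 4.33 to 4.55 in exposed and 4.43 to 4.80 in Non-exposed arrays, with a log2 difference of -0.10 (95% interval -0.32 to 0.12). Its highest value, 4.80, was Non-exposed replicate 3, and without that array the difference was -0.02. IDO2 (1), which has the suffix x, had a difference of 0.09 (interval -0.10 to 0.27) and IDO2 (2) one of 0.04 (-0.13 to 0.22). TDO2 read 4.89, 5.30, 4.91 and 5.07 in exposed and 4.84, 5.00, 4.91 and 4.74 in Non-exposed replicates, a difference of 0.17 (interval -0.07 to 0.42). Exposed replicate 2 was the highest of the 8 and the conditions overlapped. None of these 4 probe sets passed (adjusted p = 1 for each, limma).

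AFMID, the formamidase that frees kynurenine, had probe sets of opposite sign. AFMID (1) read 9.35 to 9.43 in exposed and 9.10 to 9.48 in Non-exposed arrays, a difference of 0.10 (interval -0.11 to 0.31). AFMID (2) read 5.49, 5.78, 5.67 and 5.68 against 5.97, 5.86, 5.87 and 5.66, a difference of -0.18 (interval -0.40 to 0.03). Only Non-exposed replicate 4 lay within the exposed range of AFMID (2), and neither probe set passed (adjusted p = 1, limma). Over the 8 arrays the AFMID probe sets had a correlation of -0.01.

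At the fork, KMO, the flavin-dependent monooxygenase that makes 3-hydroxykynurenine, had 4.53 ± 0.13 against 4.48 ± 0.10 for KMO (1) and 4.33 ± 0.11 against 4.30 ± 0.03 for KMO (2) (SD, n = 4). Their differences, 0.05 and 0.02, were smaller than the spread between arrays, and KMO (2) is of a kind (suffix s) that can also read related transcripts. AADAT, the aminotransferase that makes kynurenic acid, read 5.09 ± 0.24 against 5.00 ± 0.11, a difference of 0.08 (interval -0.20 to 0.36) that became -0.01 without exposed replicate 3. All 3 overlapped between conditions and did not pass (adjusted p = 1, limma).

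Downstream of KYNU, HAAO, the iron-dependent dioxygenase that opens the ring of 3-hydroxyanthranilate, read 7.26 ± 0.18 against 7.38 ± 0.22 in HAAO (1) and 5.83 ± 0.17 against 5.87 ± 0.20 in HAAO (2) (SD, n = 4). The differences were -0.12 (interval -0.41 to 0.17) and -0.04 (-0.32 to 0.23), and the conditions overlapped. Without Non-exposed replicate 3 they became -0.01 and 0.03. QPRT turns the resulting quinolinate into a precursor of NAD+. Its member probe set has the suffix x, so some of its probes can also match other sequences. It read 7.27, 7.15, 6.85 and 7.49 in exposed and 6.94, 6.94, 7.08 and 6.76 in Non-exposed replicates, so that exposed replicate 3 alone was below the highest Non-exposed array. Its difference of 0.26 (interval -0.05 to 0.57) was the highest of the 16, and it became 0.37 without exposed replicate 3 and 0.16 without exposed replicate 4. A further QPRT probe set, which carries 2 gene IDs and is not counted as a member, read 8.36 ± 0.24 against 8.20 ± 0.07, a difference of 0.16. ACMSD, the decarboxylase that diverts the pathway from NAD+, read 5.25 ± 0.08 against 5.15 ± 0.18, a difference of 0.10 (interval -0.13 to 0.32) that ran from 0.04 without Non-exposed replicate 1 to 0.18 without Non-exposed replicate 3. No probe set of these 3 genes passed (adjusted p = 1, limma).

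The 37 measured genes around the pathway, of 41 listed, contained 0 that passed in limma, where 0% of genes by their highest probe set passed. At an unadjusted p under 0.05 there was 1, NMNAT2. The median log2 difference was -0.03, with 21 lower and 16 higher, against -0.01 and 54.2% lower over 18132 genes. Each gene is given by its probe set of highest mean. The remaining 4 were not analysed here.

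Of 6 genes of tryptophan uptake, 4 had the higher mean in exposed cells. SLC7A5 and SLC3A2, which together form the LAT1 carrier of large neutral amino acids, read 12.47 ± 0.16 against 12.30 ± 0.19 and 12.75 ± 0.10 against 12.66 ± 0.05 (SD, n = 4). The aminotransferases that share the kynurenic acid step with AADAT divided, with differences of -0.02 for KYAT1, 0.17 for KYAT3 and 0.02 for GOT2. None of the 9 genes of uptake and transamination was without overlap, and none passed (adjusted p = 1, limma).

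Past ACMSD, the glutarate branch had 10.07 ± 0.08 against 10.04 ± 0.15 for DHTKD1, a 2-oxoadipate dehydrogenase subunit, and 9.61 ± 0.13 against 9.72 ± 0.18 for GCDH, glutaryl-CoA dehydrogenase. NADSYN1, which makes NAD+ from its acid form, read 9.81 ± 0.20 against 9.86 ± 0.14. NMNAT2, an adenylyltransferase of NAD+ synthesis, had the largest difference of the 37, 0.45 (interval 0.01 to 0.89), with overlap between conditions (adjusted p = 1, limma). Its 4 probe sets ran from 0.45 to 0.71. It is named because of its values, which was not planned.

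Among other fates of tryptophan, WARS1, which loads tryptophan on its tRNA, read 11.98 ± 0.18 against 12.01 ± 0.08, and DDC, the decarboxylase of serotonin synthesis, 5.97 ± 0.09 against 5.95 ± 0.09. The list of 7 had 5 lower and a median of -0.07. Among 7 genes that sense kynurenines or answer to them 6 had the lower mean, by little, with a median of -0.05. Only GPR35 had the lower mean in all of its probe sets. The receptor AHR itself read 9.37 ± 0.16 against 9.40 ± 0.08. Its targets CYP1A1 and CYP1B1 had differences of 0.11 and -0.03 and overlapped between conditions. CYP1A1 was dim, at 6.19 ± 0.17 against 6.09 ± 0.17, and CYP1B1 read 11.16 ± 0.30 against 11.19 ± 0.29. The activity of the receptor was not tested. AHR's 3 probe sets ran from -0.04 to 0.32.

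Among the genes that induce IDO1 or TDO2, IRF1, the interferon-response factor, read 10.25 ± 0.10 against 10.15 ± 0.08, and its 4 probe sets ran from -0.35 to 0.13. NR3C1, the glucocorticoid receptor that raises TDO2 in liver, read 11.67 ± 0.11 against 11.72 ± 0.10. IFNGR1, a chain of the interferon gamma receptor, was the one gene of the 37 without overlap, where 0.535% of genes were higher and 1.22% lower without overlap. It read 10.34, 10.24, 10.29 and 10.25 in exposed and 9.99, 10.22, 9.96 and 10.24 in Non-exposed replicates. The gap was 0.0073, the difference 0.18 (adjusted p = 1, limma), and the gene is named because of its values.

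**Figure D5:**
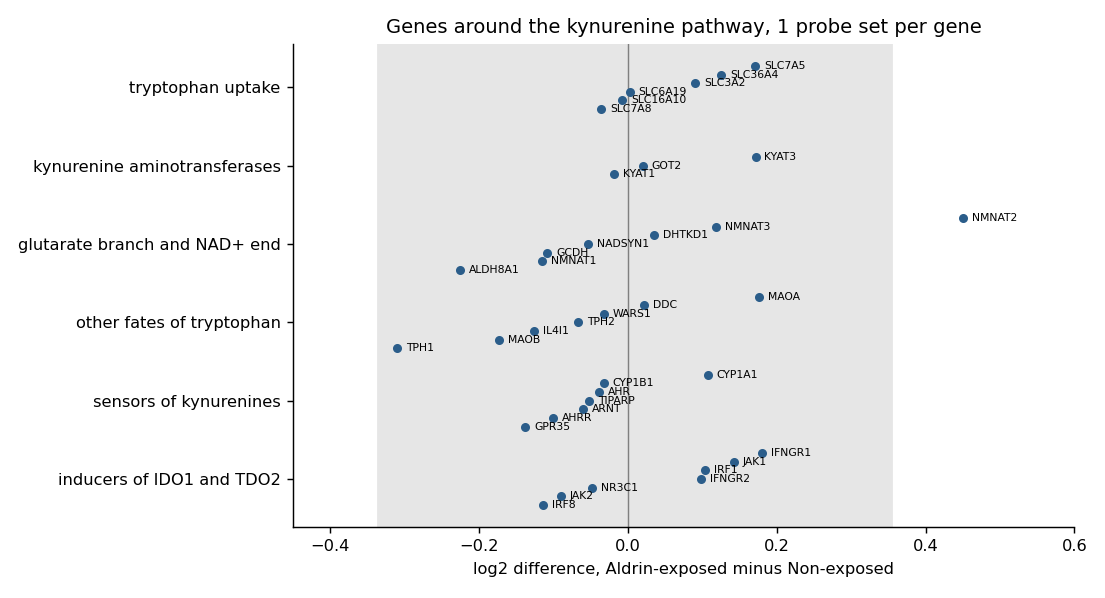
Difference of means (Aldrin-exposed minus Non-exposed, log2) of the 37 measured genes around the pathway, grouped by list, 1 probe set of highest mean per gene, over a grey band from the 1st to the 99th percentile of all probe sets. Only NMNAT2, at 0.45, lies outside the band.

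In iMat, one of the methods by which the study set expression on reactions, genes were called low, moderate or high by a 40th and a 60th percentile. Here these percentiles were taken in each condition over 18132 genes, each by the mean of its highest probe set, a choice that the paper does not give. This ranks probe sets against each other although probes differ in their response, so a class places a signal and not an amount of transcript. By these thresholds, 8 of the 10 pathway genes were low in both conditions. KYNU was high in Non-exposed cells (9.74, threshold 9.33) and moderate in exposed cells (9.10, threshold 9.36). AFMID went the other way, from 9.28 and moderate to 9.38 and high, past the threshold by less than the SD of its Non-exposed arrays. HAAO, at 7.26 and 7.38, lay under the lower thresholds of 7.43 and 7.46. The change of KYNU held without any 1 of the 8 arrays, while that of AFMID was lost without exposed replicate 1 or Non-exposed replicate 4. With quartiles as thresholds 0 of the 10 genes changed class. With the mean of all probe sets of a gene, KYNU went from moderate in Non-exposed to low in exposed cells, AFMID was moderate in both, and QPRT went from low to moderate in exposed cells.

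The genes whose values over the 8 arrays were most like KYNU (1) were TMPRSS11D, PXDN, GPR52, TNFAIP8L2 and ZNF169, with Pearson correlations of 0.97, 0.96, 0.96, 0.96 and 0.95 (Spearman 0.88, 0.81, 0.81, 0.98 and 1). The 8 points of each share the step between conditions. Taken as deviations from the mean of each condition the same 5 had 0.61, 0.37, 0.42, 0.72 and 0.96. PXDN, which encodes peroxidasin, had a log2 difference of -1.69, GPR52, an orphan receptor, -0.81, and the other 3 from -0.21 to -0.09. The lowest correlation among the probe sets of each gene was 0.47 for TMPRSS11D, 0.86 for PXDN and 0.27 for ZNF169, and the remaining genes have 1 probe set.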

How the data were processed

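RNA of 4 Aldrin-exposed and 4 Non-exposed samples was hybridised to 1-color Affymetrix arrays, whose number and not sequencing depth limits the precision. The deposited values are log2 intensities that the authors made with RMA (background correction, quantile normalization, summary per probe set), of a version not given in the sources used here. The methods name the HG-U219 array, while the series is filed under PrimeView, whose annotation gave gene names. The log base was taken from RMA. The table has 49395 probe sets, of which 102 are controls and the other 49293 were tested. Of these 44988 name 1 gene, 1832 several and 2473 none here. Comparisons used limma 3.58.1 in R 4.3.3 (lmFit, eBayes, two-sided), tested on simulated data. Other values were computed in Python 3.11.15 (numpy 2.4.6, pandas 2.3.3, scipy 1.17.1, matplotlib 3.10.9). Members and lists were chosen with earlier results of these data known. All members were named, 18 listed genes were to be named whatever their values, and the 5 genes most like KYNU were taken by Pearson correlation. Alternatives covered the test, variance model, array weights, replicate block, centring, a second quantile normalization, dim probe sets and each array left out. A component covariate and classes without each array were added after the data were seen. No arrays were identical, and 0 value columns were unused. Sequences are from RefSeq (GRCh38.p14).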

Additional observations from a re-analysis of the deposited data

Results flagged for a closer look

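In 3 of 62 groups of 4 arrays, over the members and the named genes, 1 array stood apart from the other 3 by Dixon's criterion, and chance flags about 1 in 20. KMO (1) read 4.73 in Aldrin-exposed replicate 2, above 4.44 to 4.49 in the other exposed arrays. GCDH read 9.45 in Non-exposed replicate 4, below 9.78 to 9.82 in the others. CYP1B1 read 11.61 in Aldrin-exposed replicate 3, above 10.95 to 11.06 in the others.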

How the results depend on the processing

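The 3 KYNU probe sets kept the lower mean in exposed cells in all 47 of their alternative values, and each stayed within 1 SD of the reported difference. Most of this was fixed in advance. The unequal-variance test, the variance model and the replicate block return the same difference of means. So do the covariate and leaving out dim probe sets. Leaving out 1 of 4 arrays cannot move a difference by 1 SD. For KYNU (1) and KYNU (2), without overlap, leaving out an array cannot change the sign. None of the 13 probe sets of the other members and no gene around the pathway passed the threshold under any of the 16 alternatives, the added covariate included. Member probe sets with the lower mean numbered 6 to 8 of 16 where all were kept. Without the dimmest 20% they numbered 5, but of fewer members. KYNU (3), IDO2 (2) and the probe sets of KMO, IDO1, TDO2, ACMSD and AADAT were then left out, so that count cannot be set beside the others. Of the 441 other values of 28 named results, 441 stayed within 1 SD, which most alternatives could not miss, for the reasons given for KYNU. These differences are small, and 13 of the 28 changed sign under at least 1 alternative. Among members these were both probe sets of KMO, both of HAAO and that of AADAT, and otherwise KYAT1, GOT2, DHTKD1, NADSYN1, WARS1, DDC, AHR and CYP1B1. Over all probe sets 1 passed as reported, 0 by the unequal-variance test, 0 with the replicate block, and 0 to 1 with 1 array left out (1 without Non-exposed replicate 2 or 4, 0 without any other). Whether the replicate numbers pair the samples was not settled. Same-numbered deviations correlated at 0.31, -0.34, -0.72 and -0.08, but deviations from means of 4 arrays cannot exclude a pairing. Member genes that changed class numbered 2 as reported, 0 by quartiles and 1 to 2 with 1 array left out. With 4 arrays a side the 95% intervals of the members other than KYNU extended 0.171 to 0.306 to either side of the difference.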
